A study of Mus musculus with 36 samples.

Results

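Fibroblasts grown with the pancreatic tumour clone M were compared with the same kind of fibroblasts grown alone. The comparison used 8 of the 36 libraries of the series, namely the 4 labelled clone M and the 4 labelled mono-culture, and the libraries were chosen by label alone. All fibroblasts were murine pancreatic fibroblasts of C57BL/6 background. In the clone M group they had been in direct contact for 48 h with a GFP-expressing sub-clone of a tumour and were then isolated by fluorescence-activated cell sorting, in which the GFP marks the tumour cells. Clone M is a single clone, so its effect stands for that clone only. The labels do not say whether the mono-cultures also passed through the sorter, so co-culture and sorting cannot be told apart in this comparison. The remaining libraries were 4 each from co-cultures with 6 other clones (E, H, K, N, T and V) and from a line labelled KPC1, which the labels do not explain. Nothing in the labels says that the 4 libraries of a group came from separate cultures, so p-values measure only the spread between these libraries.

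Fibroblasts of the pancreas, which include the stellate cells, lay down the collagen-rich matrix that surrounds pancreatic tumours. They receive signals from tumour cells through secreted factors such as TGF-beta, Hedgehog and growth factor ligands, and through contact-dependent receptors such as Notch. They also answer interferon, amino acid shortage and sterol shortage with dedicated groups of genes, each under its own transcription factors. The comparison therefore asks which of these groups of genes were higher or lower after contact with clone M.

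The 8 libraries held between 12532122 and 20727926 counted reads, and the 36 libraries between 12532122 and 21985538. The smallest library was clone M replicate 4, and the largest of the 8 was mono-culture replicate 4. Values are given as CPM, the reads of a gene scaled to a common library size with TMM factors, and differences as log2 fold changes with their standard error from edgeR. A gene was called at a Benjamini-Hochberg adjusted p under 0.05 over the 14439 genes tested. The fibroblast identity of the libraries was checked by markers. Summed over the 12 fibroblast and stellate markers tested, the level was 15360 to 23850 CPM with clone M and 16850 to 18630 CPM in mono-culture. Of the defining leukocyte markers, Ptprc had 1 read with clone M and 0 in mono-culture, and Adgre1, Tyrobp and Cd3e had 0 in both. The 4 leukocyte markers that could be tested summed to 12.6 to 17.8 CPM with clone M and to 19.2 to 32.2 CPM in mono-culture, and 2 of them, Cd74 and Lyz2, were lower with clone M. The 4 endothelial markers tested summed to 2.84 to 4.01 CPM and to 2.21 to 3.91 CPM, with Vwf higher with clone M, while Cdh5 had 2 and 4 reads in the 2 groups and Cldn5 had 0 in both.

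Epithelial transcripts were present in every clone M library and differed in amount between them. Their source was not tested. Krt8, a keratin of simple epithelia, stood at 53.5, 22.96, 212 and 108 CPM in the 4 clone M libraries and at 0, 0, 0 and 0.0914 CPM in mono-culture. Replicate 3 held the most and replicate 2 the least, and no clone M library overlapped the mono-culture. With 3 counts taken as the floor of detection, Krt8 was at least 571-fold higher with clone M, and at least 354-fold without replicate 3. Krt18, its partner in keratin filaments, followed the same order at 64.6, 23.4, 238 and 130 CPM, and Krt19 at 22.3, 5.41, 68.6 and 40.8 CPM. Reads of keratins with near-identical copies in the genome may be split between copies.

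Of the 15 epithelial markers, 9 could be tested, and 6 of these were higher with clone M, beside 12.2% of all genes. Without clone M replicates 3 and 4, 5 were higher. Under other settings of the analysis, some with fewer genes tested, the count was 0 to 6. The median log2 fold change of these markers was 5.1, and 0.311 to 9.37 under the other settings. The tight junction gene Cldn6 was read at 6.14, 2.98, 35.4 and 11.6 CPM with clone M and at 0 in each mono-culture library, at least 80.7-fold higher, and at least 39.8-fold without replicate 3. Wfdc2, a secreted epithelial protein, was at 12.2, 5.22, 52.95 and 23.6 CPM against at most 0.110 CPM in mono-culture, at least 135-fold higher and at least 78.5-fold without replicate 3. Genes of gut and pancreas identity were among the largest differences too. The intestinal transcription factor Cdx2 was at 11.2, 3.83, 11.5 and 8.36 CPM, and the pancreatic transcription factor Pdx1 at 10.4, 3.89, 11.2 and 5.97 CPM, against 0 in all mono-culture libraries, which gave bounds of at least 50.1-fold and at least 45.2-fold. Outside the list of epithelial markers, Nkx6-3, Cadm1, Palmd and Ifi202b had bounds of at least 39.9-fold to at least 91.8-fold. Those of Nkx6-3 and Palmd were 23.1-fold and 33-fold without replicate 3. Ifi202b, an interferon-activated gene by its name, is not a member of the list of interferon-stimulated genes below, and its bound was at least 49.5-fold.

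Some epithelial genes were missing from the clone M libraries. The 4 libraries together held 3 reads of Epcam, 3 of Cldn7, 6 of Grhl2 and none of Cldn4 and Esrp1. Cdh1, the epithelial cadherin, was at 0, 0.122, 0 and 0 CPM with clone M and at a median of 7.72 CPM, between 0.130 and 35.3 CPM, in the 24 libraries of the other 6 clones. The mean of the other clones was at least 65.2-fold above the floor of the clone M libraries. Clone K, at a mean of 0.658 CPM, was nearly without Cdh1 too, and clone M did not pass the test against it (adjusted p = 0.141). Krt8 itself was at 6.36 to 226 CPM in those 24 libraries, with a median of 89.8 CPM, and the difference of clone M from their mean did not pass the test (log2 fold change 0.51 ± 0.47, adjusted p = 0.399).

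**Figure D1:**
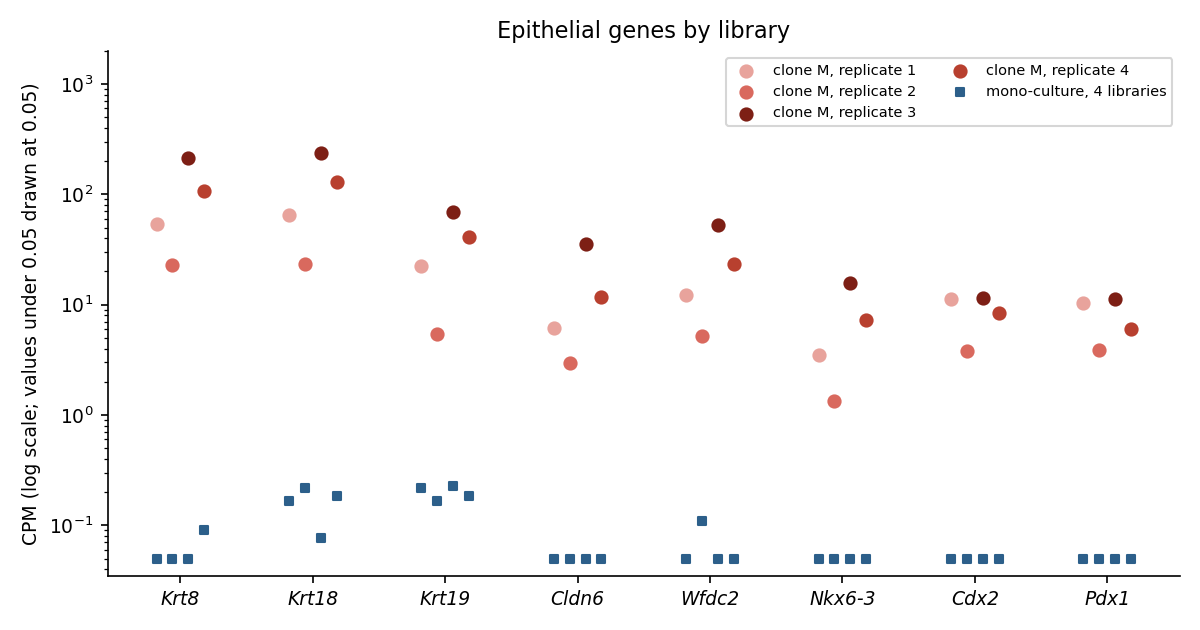
Levels in CPM, on a log axis, of 8 epithelial genes in the 4 clone M libraries (circles, one shade per replicate) and the 4 mono-culture libraries (squares), with values under 0.05 drawn at 0.05. Replicate 3 held the most Krt8 (212 CPM) and replicate 2 the least (22.96 CPM), while Krt8 in mono-culture reached 0.0914 CPM at most.

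Because these epithelial transcripts differed between the clone M libraries, the results below are also given, where they move by more than 1.5 times, without clone M replicates 3 and 4, which held the most Krt8. That comparison was added after the data had been seen, and it rests on 2 clone M libraries. Where the order of libraries is set beside that of Krt8, the source of the reads was not tested, and 4 libraries cannot decide it.

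Of the 14439 genes tested, 3320 (23%) differed between clone M and mono-culture, 1756 of them (12.2%) higher and 1564 (10.8%) lower with clone M. At least a 2-fold change was seen for 719 of the higher and 399 of the lower genes. The 4 clone M libraries lay wholly above the 4 mono-culture libraries for 2187 genes (15.1%) and wholly below for 2446 (16.9%). Without replicates 3 and 4 of clone M, 964 genes were higher and 729 lower. In bulk libraries such as these, fewer cells of a type and less RNA per cell cannot be told apart.

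Fap, the fibroblast activation protein, a surface protease of activated stromal cells, changed from near absence. Its level was 56.6, 75.7, 56.2 and 79.7 CPM with clone M and 0.881, 1.26, 1.52 and 0.640 CPM in mono-culture. The 2 groups were far apart, and the difference was 6.00 ± 0.29 on the log2 scale (adjusted p = 8.54e-16). Fap did not follow the order of Krt8, and replicate 2, with the least Krt8, had more Fap than replicate 3. The source of the Fap reads was not tested. Ahr, the aryl hydrocarbon receptor, a ligand-activated transcription factor, was at 188, 197, 205 and 208 CPM against 15.9, 15.2, 15.2 and 15.04 CPM (log2 fold change 3.699 ± 0.26, adjusted p = 2.61e-11). Both groups were tight, and the ratio of their means was the largest among genes with at least 5 CPM in mono-culture that did not overlap.

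Further genes at the top of that ranking follow. Col15a1, a collagen of basement membrane zones, was at 130, 156, 149 and 159 CPM against 15.4, 12.6, 10.9 and 9.28 CPM (log2 fold change 3.62 ± 0.27, adjusted p = 8.00e-11). Piezo2, a mechanically gated ion channel, changed by 3.50, Enpp2, the enzyme that makes lysophosphatidic acid, by 3.39, and the metalloprotease Adam12 by 3.27 on the log2 scale. The proteinase Tll1, which cleaves procollagens, the mesenchymal cadherin Cdh11, the secreted Olfm2, the retinol receptor Stra6, the Wnt antagonist Sfrp1 and the laminin receptor subunit Itga6 rose by 2.23 to 2.69. Nrn1, a small membrane-anchored protein, was at 23.1, 11.8, 63.8 and 30.7 CPM against 5.89 to 7.53 CPM, in the order of Krt8, and was no longer called without replicates 3 and 4 (log2 fold change 1.33, adjusted p = 0.163).

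At the other end, Igfbp5, an IGF binding protein, was at 0.124, 0.425, 0 and 0.0746 CPM with clone M against 17.3, 13.2, 6.69 and 3.29 CPM, at least 53-fold lower (adjusted p = 5.77e-06). Sprr1a, a small proline-rich protein of stressed and cornified cells, was at 9.80, 16.03, 4.99 and 4.78 CPM against 276, 303, 213 and 168 CPM (log2 fold change -4.75 ± 0.57). Both genes were low in every clone M library. Bmp3, the metallothionein Mt2, the complement component C3, Sprr2k, the Wnt agonist Rspo2, the tight junction gene Cldn1, Ptchd1, the ion exchanger Slc24a3, the sodium leak channel Nalcn and the interferon-stimulated gene Ifi44 fell by 2.95 to 4.16 on the log2 scale. Of these 12, Sprr2k was no longer called without replicates 3 and 4 (log2 fold change -3.04, adjusted p = 0.0929).

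**Figure D2:**
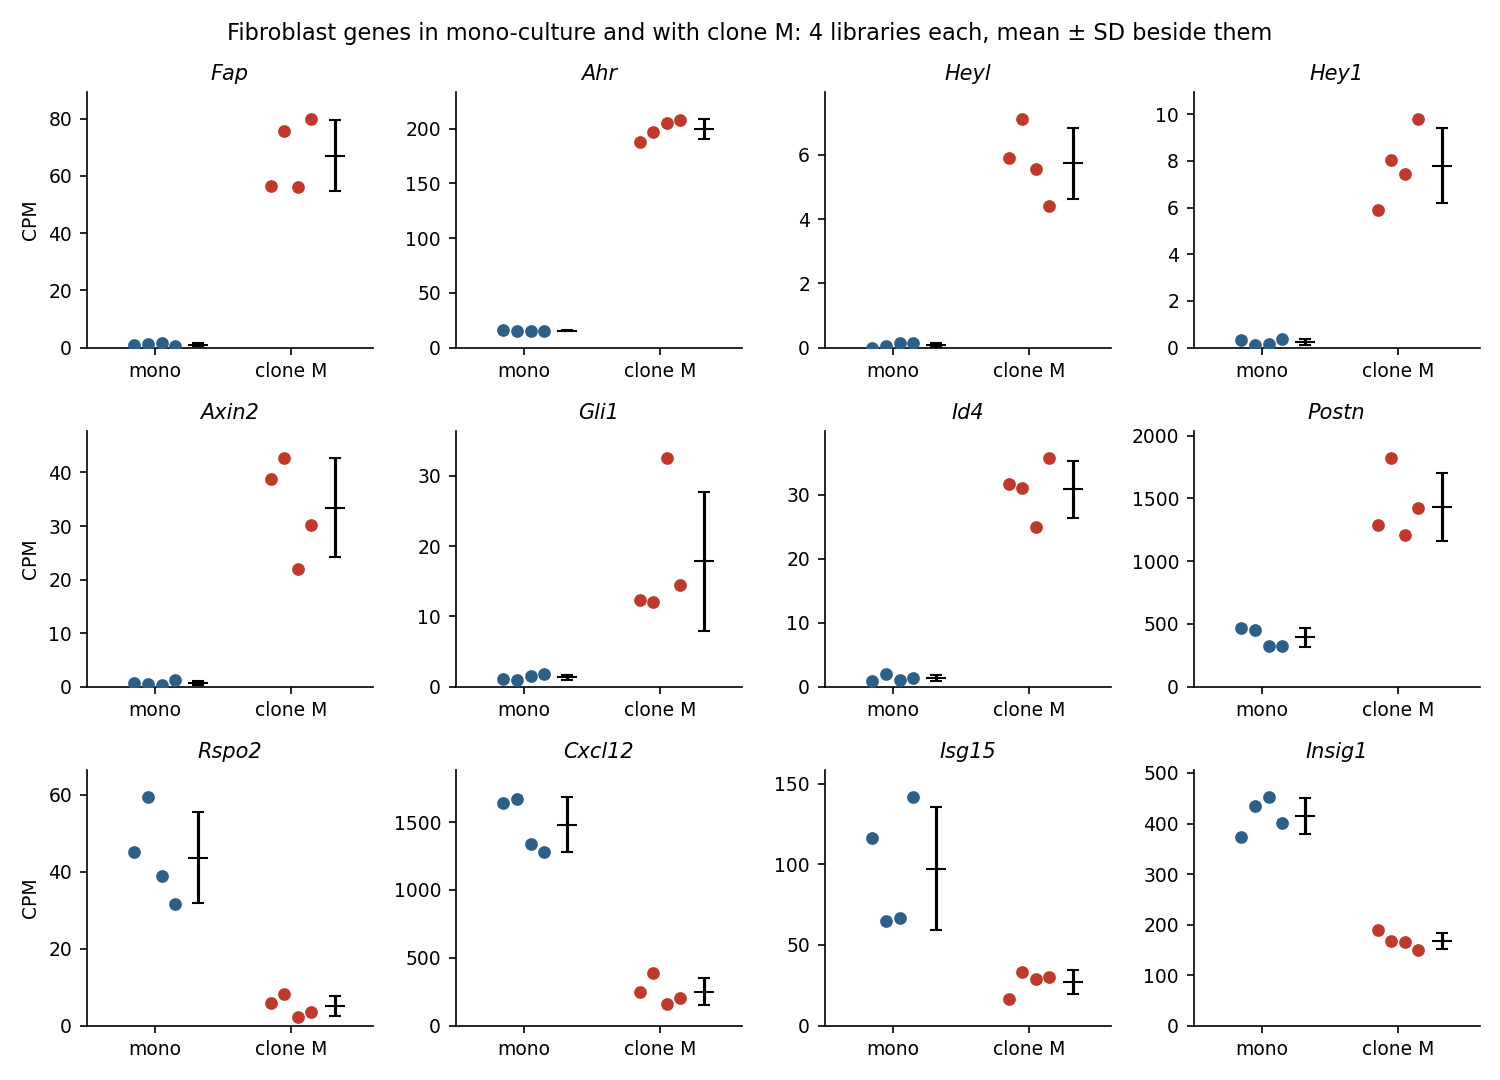
Levels in CPM of 12 genes in the 4 mono-culture libraries (blue) and the 4 clone M libraries (red), with the mean and SD of each group beside its points. Fap, Ahr, Heyl, Hey1, Axin2, Gli1, Id4 and Postn lie higher and Rspo2, Cxcl12, Isg15 and Insig1 lower with clone M, and the groups do not overlap in any of the 12.

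Notch signalling passes between touching cells, when a Jagged or Delta ligand on one cell opens a Notch receptor on its neighbour, which then switches on Hes and Hey repressors. Of the 12 Notch genes tested, 11 were higher with clone M and none was lower, against 12.2% of all genes higher, and their median log2 fold change was 1.88, against -0.000372 over all genes. Among the receptors, Notch3, the form typical of mural cells and fibroblasts, was at 407, 470, 372 and 282 CPM against 90.4, 93.0, 96.0 and 104 CPM (log2 fold change 2.00 ± 0.28, adjusted p = 2.96e-06). Notch1 was at 142, 155, 159 and 120 CPM against 53.8, 52.8, 51.7 and 56.5 CPM (log2 fold change 1.42 ± 0.18). Notch2 was the 1 member not called, with a log2 fold change of 0.20 ± 0.18 and an adjusted p of 0.458.

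Among the ligands, Jag1 was at 52.7, 65.9, 58.2 and 53.2 CPM against 13.4, 15.4, 14.5 and 21.6 CPM (log2 fold change 1.82 ± 0.26, adjusted p = 5.22e-06). Jag2 was low, at 1.80, 1.09, 8.14 and 2.31 CPM against 0.330, 0.330, 1.06 and 0.731 CPM. It was highest in replicate 3, the library with the most Krt8, and its call was lost without replicates 3 and 4 (log2 fold change 1.26, adjusted p = 0.0686). The target genes moved from near 0. Heyl was at 5.90, 7.11, 5.56 and 4.402 CPM against 0, 0.0550, 0.152 and 0.137 CPM, at least 33-fold higher. Hey1 was at 5.90, 8.02, 7.45 and 9.77 CPM against 0.330, 0.110, 0.152 and 0.366 CPM (log2 fold change 4.92 ± 0.32, adjusted p = 1.62e-12). Neither target followed the order of Krt8, and both kept their call without replicates 3 and 4. Nrarp, a feedback inhibitor of Notch, did follow it, at 2.48, 2.07, 14.6 and 5.30 CPM against 0.220 to 0.548 CPM. The source of the Heyl, Hey1 and Nrarp reads was not tested. Hes1 was at 81.8, 56.0, 96.5 and 93.4 CPM against 9.25, 21.7, 52.8 and 8.87 CPM, so its mono-culture libraries spread widely.

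Wnt ligands stabilise beta-catenin, and Axin2, Notum, Nkd1 and Tcf7 are feedback targets of that pathway. Of the 19 Wnt genes tested, 10 were higher and 2 lower with clone M, beside 12.2% and 10.8% of all genes. The median log2 fold change of the list was 1.80. Axin2, the scaffold of the destruction complex, was at 38.8, 42.6, 22.01 and 30.2 CPM against 0.661, 0.550, 0.228 and 1.28 CPM (log2 fold change 5.51 ± 0.51, adjusted p = 5.12e-09). Tcf7, a DNA-binding partner of beta-catenin, was at 36.4, 33.3, 27.8 and 33.2 CPM against 9.85, 6.93, 8.90 and 7.54 CPM (log2 fold change 1.98 ± 0.16). Neither overlapped the mono-culture, and Axin2 was lowest in replicate 3.

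The secreted inhibitor Notum rose by 3.39 ± 0.39 and the intracellular inhibitor Nkd1 by 3.04 ± 0.46 on the log2 scale. Of the ligands, Wnt5a, which acts mainly outside the beta-catenin branch, was at 50.3, 56.0, 54.6 and 48.1 CPM against 14.6, 15.3, 14.0 and 18.7 CPM (log2 fold change 1.74 ± 0.23). Wnt4 was at 7.51, 3.16, 6.94 and 5.52 CPM against 0.330 to 1.29 CPM (log2 fold change 2.93 ± 0.61). The 2 lower members were both R-spondins, secreted proteins that amplify Wnt signals at the receptor. Rspo2 was at 5.96, 8.20, 2.35 and 3.51 CPM against 45.1, 59.4, 38.9 and 31.5 CPM (log2 fold change -3.12 ± 0.41, adjusted p = 1.38e-06). Rspo3 was at 2.92, 4.68, 2.69 and 2.76 CPM against 17.7, 25.03, 14.6 and 15.2 CPM (log2 fold change -2.47 ± 0.31).

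Hedgehog ligands from epithelial cells act on receptors of neighbouring fibroblasts, among them Ptch1, and release the transcription factor Gli1, whose gene is itself a target. Of the 10 Hedgehog response genes, 4 were higher and 1 lower, beside 12.2% and 10.8% of all genes. Gli1 was at 12.3, 12.02, 32.5 and 14.5 CPM with clone M against 1.05, 0.990, 1.52 and 1.74 CPM (log2 fold change 3.75 ± 0.36, adjusted p = 5.64e-09). It was highest in replicate 3, the library with the most Krt8, and stayed called without replicates 3 and 4, at 3.19. Ptch1 was more even, at 39.3, 41.7, 45.9 and 28.5 CPM against 12.6, 14.3, 14.7 and 17.2 CPM (log2 fold change 1.40 ± 0.16). The co-receptor Boc rose by 1.20 ± 0.20, and the co-receptor Gas1 was at 275, 282, 174 and 290 CPM against 498 to 673 CPM (log2 fold change -1.26 ± 0.35, adjusted p = 0.00851), a call lost without replicates 3 and 4 (adjusted p = 0.0999). The transducer Smo did not pass the test, at 0.10 ± 0.08.

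Bone morphogenetic proteins signal through Smad proteins to the Id genes, and activins, made from inhibin beta chains, through a related branch that follistatin blocks. In this list 10 of 17 tested genes were higher and 3 lower, beside 12.2% and 10.8% of all genes. The median log2 fold change of the list was 1.25. Of the targets, Id4 was at 31.7, 31.03, 24.9 and 35.7 CPM with clone M against 0.881, 1.93, 1.06 and 1.42 CPM (log2 fold change 4.52 ± 0.44, adjusted p = 8.40e-09). Id3 was at 190, 207, 150 and 179 CPM against 40.2, 55.7, 43.0 and 38.9 CPM (log2 fold change 2.03 ± 0.41), and Id1 and the inhibitory Smad6 rose by 1.89 and 1.47. The ligand genes of this branch went the other way. Bmp4 was at 12.7, 16.9, 24.1 and 16.9 CPM against 33.3, 41.7, 37.0 and 40.2 CPM (log2 fold change -1.11 ± 0.24), and Bmp6 was lower by 2.76 ± 0.36. Both activin chains were higher. Inhbb was at 19.2, 24.9, 19.1 and 32.01 CPM against 2.59 to 5.85 CPM (log2 fold change 2.37 ± 0.29), and Inhba rose by 1.40 ± 0.27. Their inhibitor follistatin, Fst, was higher by 2.74 ± 0.47.

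TGF-beta is the main driver of matrix production in fibroblasts. Of its 15 ligand, receptor and target genes, 8 were higher and 2 lower with clone M, beside 12.2% and 10.8% of all genes. The ligand Tgfb2 was at 65.7, 82.0, 59.0 and 67.3 CPM against 13.3, 18.98, 17.5 and 17.2 CPM (log2 fold change 2.03 ± 0.21, adjusted p = 2.54e-08), and Tgfb3 was higher by 1.21 ± 0.20. The inhibitory Smad7, a direct target, was at 47.3, 47.3, 51.5 and 52.8 CPM against 21.1 to 25.03 CPM (log2 fold change 1.14 ± 0.17). Ctgf, the connective tissue growth factor, was at 78.2, 107, 126 and 105 CPM against 37.9, 87.5, 58.4 and 46.3 CPM (log2 fold change 0.85 ± 0.42, adjusted p = 0.144). Tgfbi was lower by 1.15 ± 0.30 with all 8 libraries, a call lost without replicates 3 and 4 (log2 fold change -1.07, adjusted p = 0.0686).

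Growth factor and IGF genes changed in both directions, beside 12.2% of all genes higher and 10.8% lower. Of 17 ligands of the EGF, FGF, HGF and PDGF families, 6 were higher and 3 lower, and the 6 became 3 without clone M replicate 3. Fgf2 was at 9.93, 14.9, 12.4 and 13.4 CPM against 2.70 to 3.96 CPM (log2 fold change 1.90 ± 0.25, adjusted p = 8.55e-07). Fgf7, a fibroblast factor that acts on epithelium, was at 27.9, 28.7, 27.7 and 28.95 CPM against 48.6, 59.7, 44.5 and 60.2 CPM (log2 fold change -0.91 ± 0.15). Of 10 IGF genes, 5 were higher and 2 lower. Igf1 was at 165, 253, 126 and 210 CPM against 50.2, 50.7, 37.0 and 53.1 CPM (log2 fold change 1.98 ± 0.31), and the binding proteins Igfbp3 and Igfbp7 rose by 3.02 ± 0.58 and 1.34 ± 0.14, opposite to Igfbp5.

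Immediate early genes respond within minutes to growth factors and handling. Of 20, 8 were higher and 1 lower, beside 12.2% and 10.8% of all genes. Without replicates 3 and 4 the counts were 3 and 2. Egr1 was at 2438, 1257, 3057 and 2656 CPM with clone M and at 373, 929, 1015 and 313 CPM in mono-culture (log2 fold change 1.84 ± 0.36, adjusted p = 0.000282). Fos was at 607, 153, 912 and 634 CPM against 57.2, 331, 450 and 47.2 CPM and did not pass the test (log2 fold change 1.38 ± 0.71, adjusted p = 0.169). In both genes mono-culture replicates 2 and 3 were higher than replicates 1 and 4, and clone M replicate 2 was the lowest of its group. The part of handling in these differences was not tested.

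Among matrix genes, some fibrillar collagens and some basement membrane genes were higher with clone M. Over all genes, 12.2% were higher and 10.8% lower. Of 9 fibrillar collagens, 4 were higher (Col12a1, Col5a1, Col5a2 and Col5a3) and none was lower, and the median log2 fold change was 0.53. Col1a1, the main interstitial collagen, was at 10210, 11650, 7518 and 6285 CPM against 7018, 7935, 6670 and 7449 CPM, so the groups overlapped (log2 fold change 0.30 ± 0.20, adjusted p = 0.318). Of 15 basement membrane genes, 8 were higher and 1 lower, with a median of 0.59. The difference between these lists was not tested. The endostatin precursor Col18a1 was at 284, 210, 426 and 282 CPM against 105 to 115 CPM (log2 fold change 1.43 ± 0.23), and Col4a1, a core chain of basement membranes, at 1061, 1229, 1200 and 950 CPM against 491, 519, 520 and 726 CPM (log2 fold change 0.98 ± 0.20). The lower member was Nid2, at 512, 646, 372 and 388 CPM against 681 to 731 CPM, and its call was lost without any single clone M library other than replicate 2 and without any single mono-culture library.

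Postn, periostin, a matricellular protein of tumour stroma, was at 1287, 1818, 1211 and 1420 CPM against 471, 448, 326 and 328 CPM (log2 fold change 1.87 ± 0.24, adjusted p = 9.87e-07). Fbln5, an elastic fibre protein, was lower, at 105, 163, 81.2 and 97.5 CPM against 258, 319, 254 and 312 CPM (log2 fold change -1.36 ± 0.19). Dpt, dermatopontin, was at 24.1, 25.02, 15.8 and 27.5 CPM against 228, 175, 126 and 137 CPM (log2 fold change -2.85 ± 0.35). Contractile genes, which mark myofibroblasts, mostly stayed under the threshold, with 2 of 12 higher (Myh11 and Des), near the 12.2% of all genes. Acta2, smooth muscle actin, was at 143, 271, 143 and 180 CPM against 109, 148, 121 and 195 CPM, and the groups overlapped (log2 fold change 0.36 ± 0.37, adjusted p = 0.534).

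Matrix-degrading enzymes split by member. Of 13 tested, 3 were higher and 6 lower, beside 12.2% and 10.8% of all genes. Mmp3, stromelysin 1, was at 22.2, 36.5, 15.99 and 23.7 CPM against 0.936, 0.935, 0.532 and 0.594 CPM (log2 fold change 5.01 ± 0.52, adjusted p = 2.29e-08). Mmp14, the membrane-bound collagenase, was at 503, 474, 394 and 390 CPM against 898, 814, 865 and 747 CPM (log2 fold change -0.92 ± 0.13), and its substrate Mmp2 was lower by 0.82 ± 0.15. The aggrecan-cleaving Adamts5 was at 353, 489, 225 and 219 CPM against 728, 950, 804 and 887 CPM (log2 fold change -1.39 ± 0.27). Of the surface markers of fibroblasts, the PDGF receptor Pdgfrb was higher by 1.01 ± 0.21 and Pdpn, podoplanin, lower by 0.87 ± 0.16.

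**Figure D3:**
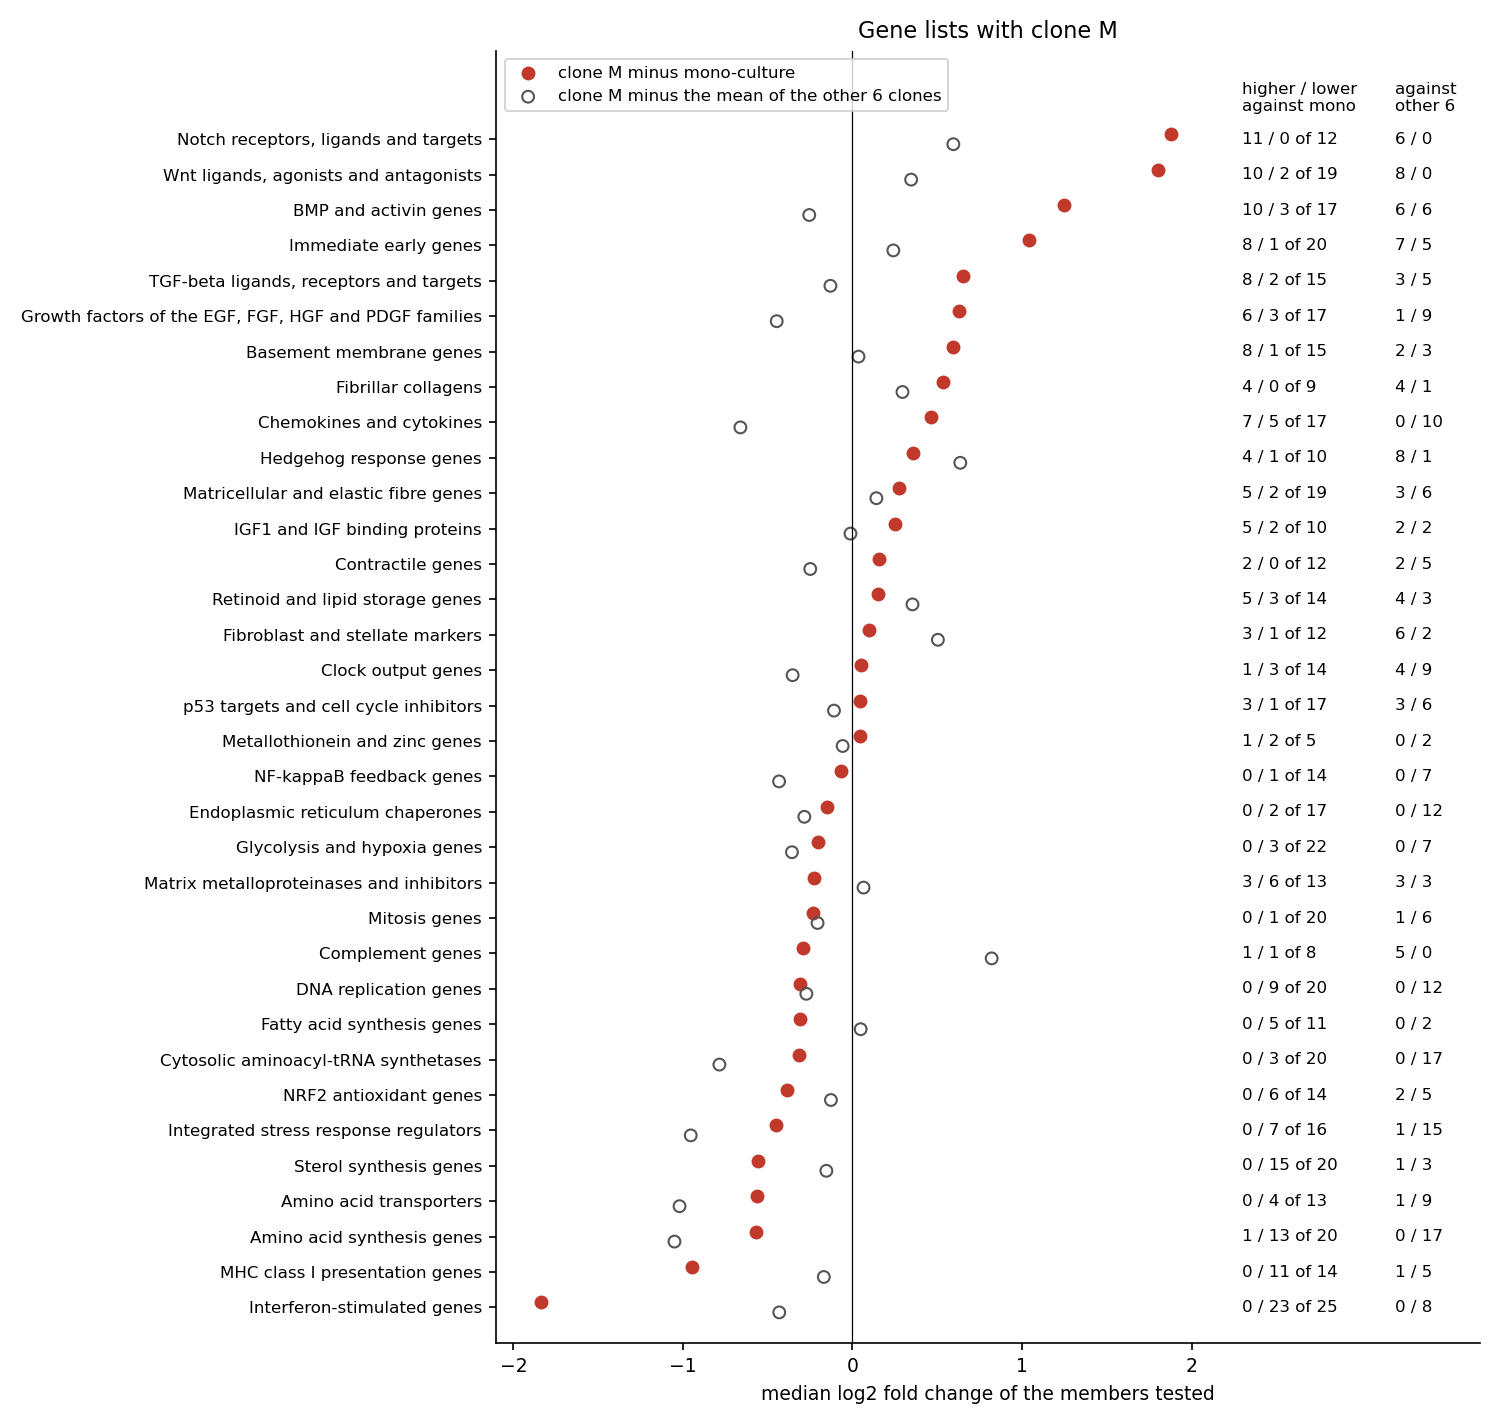
Median log2 fold change of the tested members of 34 gene lists, clone M against mono-culture (filled) and against the mean of the other 6 clones (open), with the number of members called higher and lower printed at the right. Notch genes (11 of 12 higher) lie at the top and interferon-stimulated genes (23 of 25 lower) at the bottom of the comparison with mono-culture.

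Interferons act through transcription factors that bind a short promoter element, and the genes they switch on block viruses and load peptides for display to T cells. Of 25 interferon-stimulated genes, 23 were lower with clone M and none was higher, against 10.8% of all genes lower, and their median log2 fold change was -1.84. The letters GAAANNGAA, the core of the interferon-stimulated response element, were searched on both strands in promoter windows of 250 bases before to 50 bases after each gene start (RefSeq sequences, build GRCm38). They occurred in 10 of the 16 listed genes with a window (62.5%) and in 856 of 9989 tested genes with a window (8.57%). The stretches around the matches in 4 of the listed genes are shown in the direction of the gene, matches in capitals, to let the element be seen beside the values. Overlapping matches merge into 1 run of capitals, and a match on the opposite strand reads as its reverse complement. They lie at chr4:156200851-156200909 (minus strand) for Isg15, chr19:34640780-34640838 (plus strand) for Ifit1, chr8:71537563-71537621 (minus strand) for Bst2 and chr12:26456538-26456596 (minus strand) for Rsad2, all upstream of the start.
Isg15: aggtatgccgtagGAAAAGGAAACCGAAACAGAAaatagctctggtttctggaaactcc
Ifit1: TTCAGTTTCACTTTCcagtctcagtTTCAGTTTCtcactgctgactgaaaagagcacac
Bst2: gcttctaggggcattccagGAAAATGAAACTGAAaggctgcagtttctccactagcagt
Rsad2: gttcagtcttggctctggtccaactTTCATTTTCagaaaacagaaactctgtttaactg
A match of letters describes the sequence only.

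Isg15, a ubiquitin-like modifier, was at 16.6, 33.2, 29.1 and 29.9 CPM with clone M and at 116, 64.6, 66.8 and 141 CPM in mono-culture (log2 fold change -1.84 ± 0.34, adjusted p = 0.000152). Ifit1, which binds foreign RNA, was at 36.5, 55.2, 53.01 and 49.0 CPM against 178, 128, 119 and 219 CPM (log2 fold change -1.74 ± 0.29). Bst2, tetherin, was at 23.5, 40.9, 50.03 and 49.2 CPM against 201, 115, 127 and 242 CPM (log2 fold change -2.07 ± 0.42). In all 3 genes mono-culture replicates 1 and 4 were higher than replicates 2 and 3, and the 2 groups did not overlap. Rsad2, viperin, was at 1.30, 3.34, 2.87 and 2.02 CPM against 18.1, 12.7, 10.3 and 20.1 CPM (log2 fold change -2.68 ± 0.42, adjusted p = 1.99e-05).

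Sensor and regulator genes of the pathway were lower as well. The RNA sensor Dhx58 was lower by 1.88 ± 0.34 on the log2 scale. Irf7, the regulator that amplifies interferon production, was at 16.4, 21.98, 26.3 and 22.1 CPM against 92.4, 48.1, 53.9 and 115 CPM (log2 fold change -1.84 ± 0.45, adjusted p = 0.00325). Ifit2 did not pass the test, at -0.38 ± 0.15 (adjusted p = 0.0661). Without clone M replicates 3 and 4, 19 of the 25 were lower.

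Of 14 genes of MHC class I presentation, 11 were lower and none higher, beside 10.8% of all genes lower, with a median of -0.95. H2-K1, a class I heavy chain, was at 34.5, 42.4, 43.0 and 35.1 CPM with clone M against 106, 93.7, 78.4 and 152 CPM (log2 fold change -1.47 ± 0.21, adjusted p = 3.98e-06), and H2-D1 at 57.4, 70.5, 78.9 and 69.0 CPM against 160, 114, 119 and 189 CPM (log2 fold change -1.08 ± 0.19). The heavy chain genes are close copies of each other, so their reads may be split. The peptide editor Tapbp was lower by 1.24 ± 0.19, and the light chain B2m was at 669, 718, 691 and 722 CPM against 1142, 1046, 857 and 1158 CPM (log2 fold change -0.59 ± 0.13).

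Chemokines changed member by member. Of 17 chemokine and cytokine genes, 7 were higher and 5 lower, beside 12.2% and 10.8% of all genes. The 7 became 3 without clone M replicate 3, 4 or both, and 4 without mono-culture replicate 1, 2 or 4. The median log2 fold change of the list was 0.465, and 0.116 without clone M replicates 3 and 4. Cxcl12, the ligand that fibroblasts use to hold CXCR4-expressing cells, was at 248, 388, 160 and 204 CPM against 1639, 1667, 1340 and 1279 CPM (log2 fold change -2.57 ± 0.39, adjusted p = 1.31e-05). The monocyte attractants Ccl2 and Ccl7 were lower by 1.42 ± 0.42 and 1.56 ± 0.41, and Ccl5, also an interferon-responsive gene, by 1.35 ± 0.22. Il1rl1, the IL-33 receptor, was at 1.86, 4.01, 2.69 and 3.51 CPM against 22.02, 20.7, 14.4 and 16.4 CPM (log2 fold change -2.61 ± 0.34), while its ligand Il33 was at 6.64, 14.2, 10.9 and 14.3 CPM against 3.73 to 5.39 CPM (log2 fold change 1.32 ± 0.31). The neutrophil attractant Cxcl5 was at 1.30, 0.607, 2.41 and 3.36 CPM against at most 0.0550 CPM, at least 11-fold higher. Il6 stayed low, at 0.931, 0.850, 1.32 and 1.86 CPM against 0.320 to 0.608 CPM (log2 fold change 1.34 ± 0.47, adjusted p = 0.0364), and lost its call without any 1 of clone M replicates 3 and 4 and mono-culture replicates 1, 2 and 4.

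C3, the central complement component, was at 3.23, 6.74, 2.46 and 2.69 CPM against 66.8, 39.8, 30.04 and 52.6 CPM (log2 fold change -3.64 ± 0.59, adjusted p = 3.24e-05). It was the 1 complement gene of 8 that was lower, beside 10.8% of all genes. Vcam1, an adhesion molecule for leukocytes, was at 109, 106, 106 and 102 CPM against 268, 256, 244 and 265 CPM (log2 fold change -1.29 ± 0.15). It was the only member of the 14 NF-kappaB feedback genes called by edgeR.

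Cholesterol synthesis genes are switched on by SREBP2 when membranes run short of sterol. Of 20 sterol synthesis genes, 15 were lower with clone M and none was higher, beside 10.8% of all genes lower. The median log2 fold change of the list was -0.56. Insig1, the sterol sensor that holds SREBP in the endoplasmic reticulum and is itself a target, was at 189, 168, 166 and 150 CPM against 373, 435, 452 and 402 CPM (log2 fold change -1.30 ± 0.15, adjusted p = 1.33e-07). The enzymes Fdps, which makes farnesyl diphosphate, and Lss, which makes lanosterol, were lower by 1.01 ± 0.14 and 0.91 ± 0.19. Hmgcs1, an early enzyme of the pathway, was at 378, 361, 387 and 315 CPM against 452, 551, 592 and 591 CPM (log2 fold change -0.60 ± 0.17, adjusted p = 0.00995). The groups did not overlap, but the call was lost without replicates 3 and 4, where 8 of the 20 genes were lower and the median of the list was -0.54.

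Hmgcs1 was the 1 sterol synthesis gene of 11 with a promoter window (9.09%) that held the letters TCACNCCAC, a sterol response element, which were found in 141 of 9989 windows of tested genes (1.41%). The stretch, with the match in capitals, lies at chr13:119690189-119690247 (plus strand, GRCm38), upstream of the start.
Hmgcs1: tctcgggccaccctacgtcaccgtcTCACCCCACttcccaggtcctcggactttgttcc

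Some members of smaller groups were lower too, beside 10.8% of all genes. Of 14 genes controlled by NRF2, the sensor of oxidative stress, 6 were lower, among them Hmox1, haem oxygenase 1, at 57.6, 50.5, 51.3 and 70.4 CPM against 107, 124, 128 and 118 CPM (log2 fold change -1.05 ± 0.14, adjusted p = 1.41e-06). Without replicates 3 and 4 the 6 became 3. Metallothioneins buffer zinc and copper, and of 5 metallothionein and zinc genes Mt1 and Mt2 were lower and the zinc importer Slc39a10 was higher. Mt1 was at 71.0, 41.8, 29.4 and 59.99 CPM against 254, 264, 249 and 191 CPM (log2 fold change -2.25 ± 0.28). Of 20 DNA replication genes, 9 were lower, with small differences such as -0.52 ± 0.09 for the helicase subunit Mcm7 and -0.52 ± 0.11 for the clamp Pcna. The 9 became 5 without clone M replicate 3, and 3 without replicates 3 and 4. Of 20 mitosis genes, 1 (Aurka) was called, at -0.42 ± 0.15 (adjusted p = 0.0441), a call lost without any 1 of the 8 libraries except clone M replicate 2. The cell cycle inhibitor Cdkn1c was at 3.72, 3.40, 2.46 and 3.36 CPM against 20.2, 20.5, 16.5 and 20.02 CPM (log2 fold change -2.58 ± 0.27).

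Retinoid genes, of interest because quiescent stellate cells store vitamin A, moved in both directions. Of 14 retinoid and lipid storage genes, 5 were higher and 3 lower, beside 12.2% and 10.8% of all genes. Rarb, the retinoic acid receptor beta and a direct target of retinoic acid, was at 18.99, 17.9, 18.1 and 15.6 CPM against 2.75, 3.69, 2.89 and 3.11 CPM (log2 fold change 2.50 ± 0.27, adjusted p = 4.30e-08). Stra6, the retinol receptor, was higher by 2.49 ± 0.44, and Crabp1, a cytosolic retinoic acid carrier, was at 44.2, 48.0, 28.9 and 27.2 CPM against 250, 251, 228 and 216 CPM (log2 fold change -2.67 ± 0.25).

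The integrated stress response slows translation when amino acids run short and lets the factor ATF4 accumulate. ATF4 and its partners C/EBP-beta and CHOP bind a composite element and switch on genes for amino acid synthesis, uptake and tRNA charging. Of 16 regulators of this response, 7 were lower with clone M than in mono-culture and none was higher, beside 10.8% of all genes lower. Of 20 amino acid synthesis genes, 13 were lower and 1 (Glul, glutamine synthetase) was higher, and of 13 amino acid transporters 4 and of 20 tRNA synthetases 3 were lower. Without clone M replicates 3 and 4, 5 regulators, 4 synthesis genes and 1 synthetase were lower, and of the transporters edgeR called 0, with 3 at an unadjusted p under 0.05. The medians there were close to those of all 4 libraries, at -0.56 against -0.45 for the regulators, -0.59 against -0.57 for the synthesis genes, -0.46 against -0.56 for the transporters and -0.28 against -0.31 for the synthetases.

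The letters TGATGNAA, a C/EBP-ATF response element, occurred in the promoter windows of 6 of 15 regulators (40.0%), 3 of 16 synthesis genes (18.8%), 2 of 9 transporters (22.2%) and 5 of 12 synthetases (41.7%), and in 281 of 9989 tested genes (2.81%). The stretches around the matches in 5 of the genes are shown as above, with matches in capitals. They lie at chr2:119351024-119351081 (plus strand) for Chac1, chr7:126625548-126625605 (minus strand) for Nupr1, chr3:50443628-50443685 (minus strand) for Slc7a11, chr6:7693210-7693257 (minus strand) for Asns and chr19:43524675-43524732 (minus strand) for Got1, all in GRCm38 and upstream of the start.
Chac1: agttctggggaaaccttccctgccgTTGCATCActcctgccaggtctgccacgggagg
Nupr1: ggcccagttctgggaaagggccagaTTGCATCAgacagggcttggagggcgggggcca
Slc7a11: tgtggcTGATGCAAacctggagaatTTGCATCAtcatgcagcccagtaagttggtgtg
Asns: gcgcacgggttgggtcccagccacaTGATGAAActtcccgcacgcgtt
Got1: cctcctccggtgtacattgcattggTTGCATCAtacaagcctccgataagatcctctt

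Trib3, a pseudokinase that restrains ATF4, was at 26.6, 32.4, 28.02 and 18.1 CPM with clone M and at 54.8, 80.7, 71.3 and 83.6 CPM in mono-culture (log2 fold change -1.46 ± 0.26, adjusted p = 9.08e-05). Atf4 itself was at 363, 360, 405 and 309 CPM against 481, 674, 574 and 651 CPM (log2 fold change -0.73 ± 0.14), and Ddit3, which encodes CHOP, at 73.0, 70.6, 60.7 and 58.2 CPM against 125, 136, 140 and 126 CPM (log2 fold change -1.004 ± 0.21). Chac1, a glutathione-degrading target, was at 17.8, 20.8, 18.2 and 10.9 CPM against 31.8, 45.2, 47.5 and 45.3 CPM (log2 fold change -1.32 ± 0.29). All 4 kept their call without replicates 3 and 4, and in each of them the 4 clone M libraries lay below the 4 mono-culture libraries.

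Asns, asparagine synthetase, was at 86.9, 109, 96.3 and 88.5 CPM against 137, 205, 172 and 180 CPM (log2 fold change -0.87 ± 0.22, adjusted p = 0.00484). The serine synthesis gene Phgdh was at 126, 137, 130 and 127 CPM against 203, 271, 230 and 243 CPM (log2 fold change -0.87 ± 0.15). Cth, which makes cysteine from cystathionine, was at 5.96, 8.32, 6.48 and 5.60 CPM against 14.2, 23.1, 15.2 and 21.3 CPM (log2 fold change -1.48 ± 0.38). Mono-culture replicate 1 was the lowest of its group in all 3. Without replicates 3 and 4, Phgdh kept its call at -0.85, while Asns, at -0.83 (adjusted p = 0.0627), and Cth, at -1.37 (adjusted p = 0.0718), lost it with differences of similar size. Got1, the cytosolic aspartate aminotransferase, was at 36.5, 41.1, 44.5 and 45.4 CPM against 54.9, 66.1, 60.5 and 62.8 CPM (log2 fold change -0.55 ± 0.18, adjusted p = 0.0225), a call lost without clone M replicate 1 or 2 or mono-culture replicate 2. Slc7a11, the cystine importer whose window holds 2 matches, did not pass the test, at -1.09 ± 0.42 (adjusted p = 0.0586), and neither did the stress protein gene Nupr1, at -0.33 ± 0.19 (adjusted p = 0.211).

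Stress response and amino acid genes were also lower with clone M than with most of the other clones, with the fewest called against clone K. By median log2 fold change the regulators differed least from clone E, at -0.40 against -0.55 for clone K. The transporters differed least from clone N, at -0.44 against -0.51 for clone K. Against the mean of the other 6 clones, 6285 genes (43.5%) differed, 3225 (22.3%) higher and 3060 (21.2%) lower with clone M, and against that background 15 of the 16 regulators, 17 of the 20 synthesis genes, 17 of the 20 synthetases and 9 of the 13 transporters were lower. The medians of these lists were -0.95, -1.05, -0.79 and -1.02 on the log2 scale, against 0.0145 over all genes tested. Against clones E, K and N alone they were -0.55, -0.59, -0.45 and -0.53. The regulator Atf5 and the transporter Slc38a4 were higher with clone M, and the other 3 transporters were not called. Trib3 was at a median of 104 CPM, between 32.8 and 191 CPM, in the 24 libraries of the other clones (log2 fold change -1.82 ± 0.22, adjusted p = 3.14e-07). Chac1 was at a median of 57.7 CPM there, between 20.3 and 147 CPM (log2 fold change -1.94 ± 0.25), and Asns at 305 CPM, between 93.5 and 671 CPM (log2 fold change -1.69 ± 0.19). Cth was lower by 2.55 ± 0.34, Slc7a11 by 2.40 ± 0.38, Got1 by 1.22 ± 0.15 and Nupr1 by 1.20 ± 0.16. For Trib3 the 4 clone M libraries lay below all 24, which held for 111 genes (0.769%) in that direction and for 109 genes (0.755%) in the other. Without clone M replicates 3 and 4 the counts of lower genes were 13, 15, 15 and 9.

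**Figure D4:**
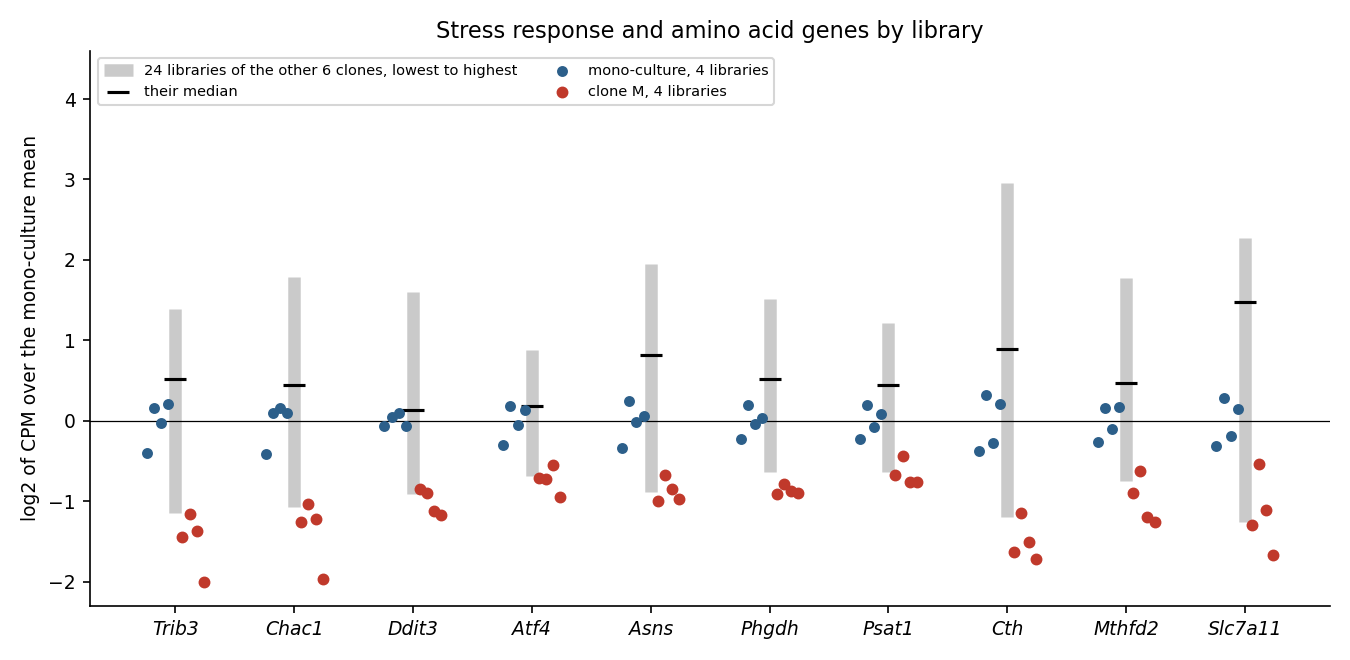
Levels of 10 stress response and amino acid genes as log2 of CPM over the mono-culture mean, in the 4 mono-culture libraries (blue), the 4 clone M libraries (red) and the 24 libraries of the other 6 clones (grey bar from lowest to highest, black dash at the median). The clone M points lie below 0 in all 10 genes, and the medians of the other clones lie above it.

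The levels of whole lists placed clone M at the bottom of the 9 cultures. The mean log2 CPM of the 16 regulators was 5.08 ± 0.0869 (SD, n = 4) with clone M, 5.67 ± 0.200 in mono-culture and between 5.49 with clone E and 6.92 with clone V in the 7 other co-cultures. All 4 clone M libraries, at 4.96 to 5.16, lay below the lowest library of every other culture, the nearest of which was a clone K library at 5.18. For the synthesis genes the mean was 5.85 ± 0.0983 with clone M, 6.39 in mono-culture and 6.24 with clone K, and clone K, at 5.92 in its lowest library, overlapped clone M. These levels rest on the same genes as the counts above and are a description.

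**Figure D5:**
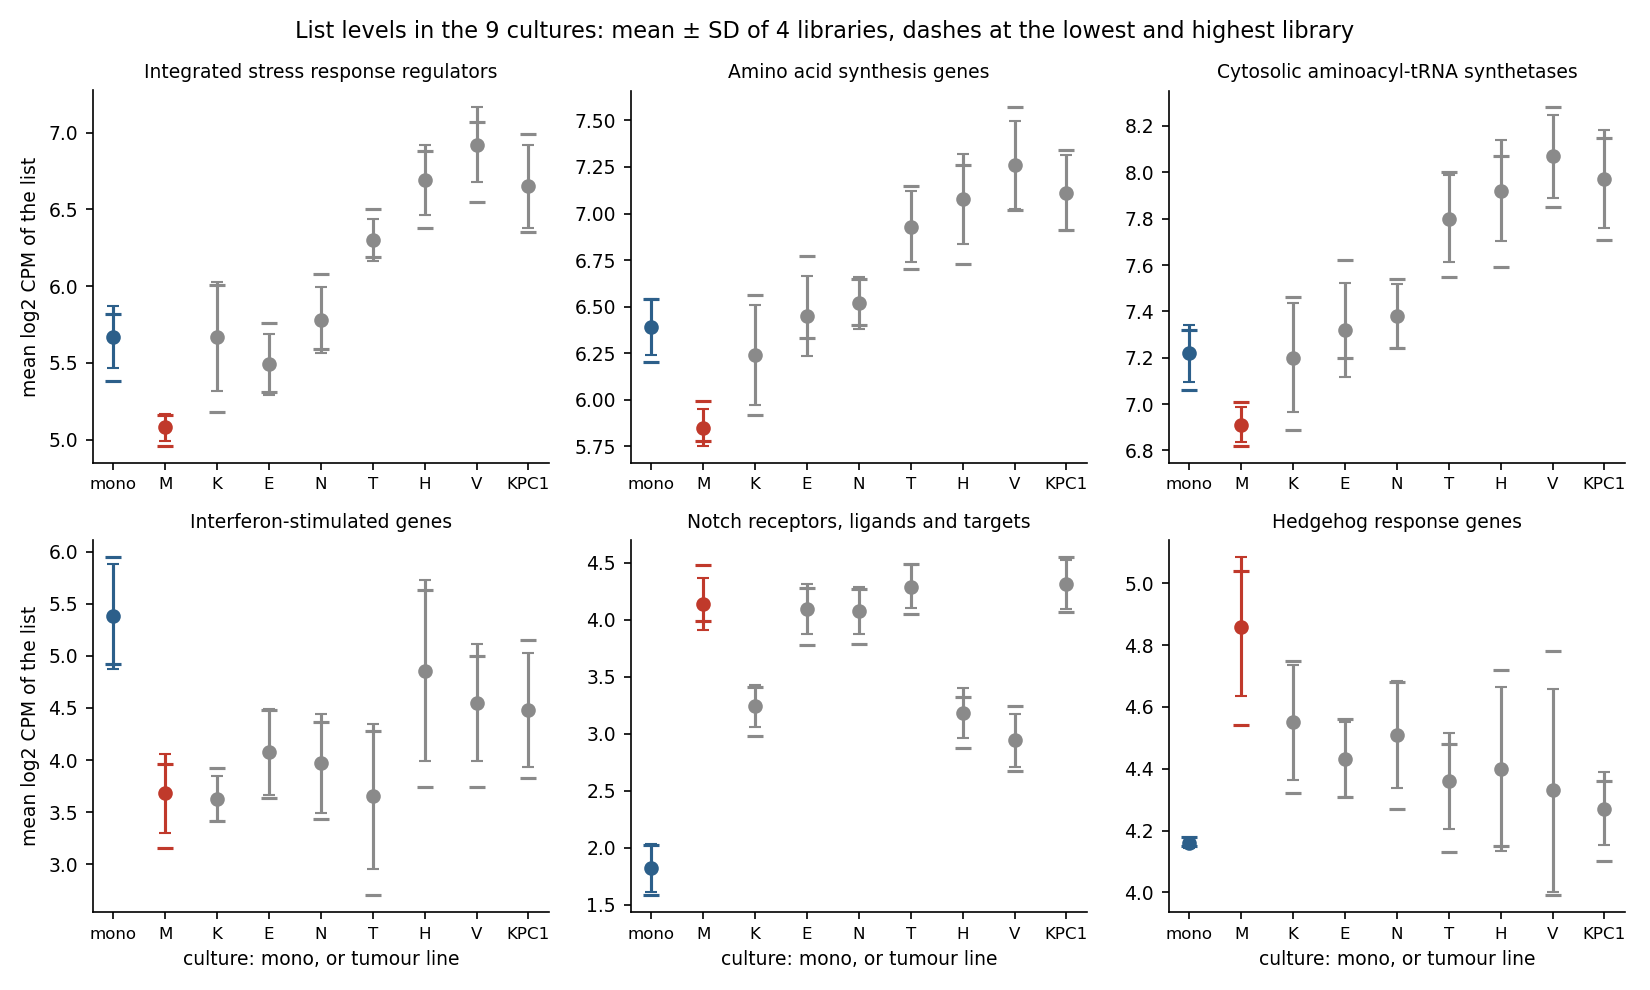
List levels (log2 CPM averaged over tested members) for 6 lists in the 9 cultures, as mean and SD of 4 libraries with dashes at the lowest and highest library. In the 3 upper panels clone M (red) is the lowest culture, with a mean of 5.08 for the regulators against 5.67 in mono-culture (blue), and in the Hedgehog panel it is the highest.

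The difference was tested against each line singly. Lower with clone M among the 16 regulators were 4 against clone K, 7 against clone E, 9 against clone N, 14 against clone T, 15 against clone H, 15 against clone V and 14 against KPC1. The shares of all genes lower in these comparisons were 1.35%, 6.43%, 10.2%, 20.4%, 25.5%, 28.3% and 27.9%. Among the 20 synthesis genes the counts in the same order of lines were 1, 11, 12, 16, 17, 18 and 16, and among the 13 transporters 1, 4, 5, 9, 9, 9 and 9. Among the 20 synthetases they were 0, 9, 10, 17, 18, 19 and 18 by edgeR, with 9 at an unadjusted p under 0.05 against clone K. Lower against each of the 7 lines were 32 genes (0.222%), which included Trib3, Atf4, Chac1 and Phgdh, and higher against each were 18 genes (0.125%).

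Mmp3 and some retinoid genes also differed from the other clones. Mmp3 was at a median of 3.52 CPM in the 24 other libraries and at 15.03 CPM in the highest of them, below the lowest clone M library at 15.99 CPM (log2 fold change 3.26 ± 0.27, adjusted p = 6.99e-10). Against clone K alone it did not pass the test (log2 fold change 1.19, adjusted p = 0.124). Of the 14 retinoid and lipid storage genes, 4 were higher and 3 lower against the mean of the other clones, near the 22.3% and 21.2% of all genes, and Crabp1 was lower against clones E, H and V singly. Dhrs3, a retinal reductase induced by retinoic acid, was at 38.8, 47.0, 34.5 and 26.3 CPM with clone M, 10.6 to 13.3 CPM in mono-culture and at most 20.2 CPM with the other clones (log2 fold change 2.33 ± 0.23 against their mean). Rarb was higher with clone M than with each of the 7 other lines, by 0.95 against clone K and 3.12 against clone V on the log2 scale. The receptor subunit Gabra3 was also higher against each of the 7. Of further genes, Ggt5, the integrin Itga9, Rasl12, the growth factor Pdgfd, Zfp618 and Medag differed most from the mean of the other clones. They were higher by 1.53 to 1.98. Of these 10 genes, Ggt5, Pdgfd and Medag did not pass the test between clone M and mono-culture (adjusted p = 0.131, 0.945 and 0.0969). Against clone K singly, Dhrs3, Ggt5, Itga9, Pdgfd and Medag did not pass the edgeR test (adjusted p = 0.0928, 0.459, 0.161, 0.234 and 0.0667). Rasl12 did (adjusted p = 0.00168). Against clone E singly, Ggt5, Itga9, Rasl12 and Medag did not pass, while Dhrs3 and Pdgfd did.

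Among the genes lower with clone M than with the other clones, Grem1, a secreted BMP antagonist made by stromal cells, was at 132, 135, 126 and 167 CPM with clone M and between 272 and 845 CPM in the 24 other libraries (log2 fold change -1.91 ± 0.22, adjusted p = 1.30e-07). It was lower than with each of the 7 other lines. Against mono-culture, at 161 to 237 CPM, it did not pass the test (log2 fold change -0.49 ± 0.25). Ankrd1, a stretch- and YAP-responsive gene, was at 58.8, 64.3, 95.4 and 82.5 CPM with clone M, 128 to 180 CPM in mono-culture and 100 to 728 CPM with the other clones (log2 fold change -1.64 ± 0.22). Kctd15, Plcxd2, Sorcs2, Gdap1l1 and Steap1 were lower by 1.61 to 2.50 against the mean of the other clones.

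Some secreted factors were lower than with the other clones and others higher. Ctgf, at 78.2 to 126 CPM with clone M, had a median of 369 CPM with the other clones, and it was lower than with each of the 7 lines. Against the mean of the other clones, the EGF receptor ligands Ereg and Areg were lower by 1.82 ± 0.29 and 3.65 ± 0.64, and Il6 by 2.15 ± 0.32. Against clone K singly these genes did not pass the test (adjusted p = 0.54 for Ereg, 0.966 for Areg and 0.061 for Il6). Of the 17 chemokine and cytokine genes, 10 were lower and none higher, and of the 17 growth factor genes 9 were lower and 1 (Pdgfd) higher. For the counts against the mean of the other clones, here and below, the background is 22.3% of all genes higher and 21.2% lower. Against clone K singly, 1 chemokine or cytokine gene and 5 growth factor genes were lower, beside 1.35% of all genes. In the other direction, 5 of 8 complement genes and 8 of 19 Wnt genes were higher and none was lower. Their medians were 0.82 and 0.35, and 0.23 and 0.12 against clones E, K and N alone. Against clone K singly, no member of either list was called. In the Hedgehog list 8 of 10 genes were higher and 1 lower with clone M than with the mean of the other clones. Singly, 2 were higher against clone K and 4 against each of clones E and N. Of all 14439 genes tested, 128 were higher against clone K, 735 against clone E and 1298 against clone N. Gli1 was at a median of 7.69 CPM and at most 20.9 CPM in the 24 libraries of the other clones (log2 fold change 1.55 ± 0.21). Singly, Gli1 was not called against clone V (adjusted p = 0.348) or KPC1 (adjusted p = 0.733). In the Notch list 6 of 12 were higher, and 3 without any 1 of clone M replicates 1, 2 and 3. Singly, 7 Notch genes were higher against clone H, 9 against clone V and 5 against clone K. All genes higher there numbered 3687, 4286 and 128. Against clones E, N and T and KPC1, edgeR called 1, 0, 2 and 2 Notch genes higher and 0, 0, 1 and 3 lower. The medians against these 4 lines were -0.05, 0.20, -0.26 and -0.03. The interferon-stimulated genes gave 8 of 25 lower against the mean of the other clones, where 21.2% of all genes were lower, and 0 by edgeR without clone M replicate 1, where 4 had an unadjusted p under 0.05. Against single lines, 21 were lower against clone H, 11 against clone V and 11 against KPC1, beside 25.5%, 28.3% and 27.9% of all genes. Against clones E, K, N and T edgeR called 0 lower, with 1, 0, 3 and 1 at an unadjusted p under 0.05, and 2 were higher against clone T.

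Clone K was the culture nearest to clone M. Between them 323 genes (2.24%) differed, 128 (0.886%) higher and 195 (1.35%) lower with clone M, against 1664 for clone E, 2768 for clone N, 5851 for clone T, 7372 for clone H, 8011 for KPC1 and 8367 for clone V. The root mean square of the log2 fold changes of all genes gave the same nearest and farthest lines, at 0.452 for clone K and 1.02 for clone V. Gli1 was higher with clone M than with clone K by 3.33 on the log2 scale (adjusted p = 7.79e-07). Fap was higher by 1.52, Hey1 by 1.31 and Jag2 by 2.52. Of the 12 contractile genes, 7 were lower with clone M than with clone K and none was higher, among them Acta2 by 1.85 and Tagln, transgelin, by 1.96 on the log2 scale. Grem1 was lower by 1.84, Fbln5 by 1.30 and Ctgf by 1.70.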

How the data were processed

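RNA-seq of sorted fibroblasts was analysed from 36 libraries in 9 groups of 4. The libraries were made from 200 ng of RNA with a stranded poly(A) kit and 14 PCR cycles and read as 76 bp pairs. The submitters' processing notes name STAR, featureCounts, edgeR and the mouse build mm10, with versions not given in the sources used here. The authors deposited raw read counts per gene (39017 genes) and a table of RPKM values (37746 genes). The counts carried every main result, and the RPKM values served only for alternatives on a log2(RPKM + pseudocount) scale with pseudocounts of 1 and 0.1.

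Counts of all 36 libraries were fitted with 1 mean per group by edgeR 4.0.16 in R 4.3.3 (quasi-likelihood test, TMM scaling, the filterByExpr filter), which kept 14439 genes, with Benjamini-Hochberg adjustment of p over all of them. Clone M was set against mono-culture, against the mean of the other 6 clones and against each other line. Standard errors are those of the fitted log2 fold changes. The fitting scripts were tested on simulated data. The smallest chi-square per degree of freedom between replicate libraries was 5.861, so no library was a copy of another in its own group. Pairs from different groups were not compared in this way. A floor of 3 counts stood for 0.191 CPM on average with clone M and 0.174 CPM in mono-culture, and floors cover counting error only. Folds against a group under the floor are lower bounds.

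The comparison, its gene lists and the genes named were chosen with earlier results of these data known. The genes named were the 12 highest and 12 lowest log2 fold changes among called genes of at least 5 CPM in mono-culture whose groups did not overlap, the 10 highest among genes under 5 CPM there, and the 10 highest and 10 lowest against the 24 libraries of the other 6 clones, together with members of the lists. Gm129, which the last rule names, is given only in the closing section. Same-numbered libraries of clone M and mono-culture did not deviate together (r between -0.154 and 0.033), and with no other line were all 4 pairs over 0.1, so no pairing was used. Genes with near-identical copies (keratins, MHC heavy chains, metallothioneins, Ifit genes) may share reads. Alternatives were DESeq2 1.42.0, limma 3.58.1 on RPKM, other scalings and filters, a fit of the 8 libraries alone, a replicate block, and leaving out each library. A few genes are not reported here.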

Additional observations from a re-analysis of the deposited data

Results flagged for a closer look

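Of 354 groups of 4 libraries examined, for 177 named genes with clone M and in mono-culture, 14 held a library whose gap to its nearest neighbour exceeded Dixon's limit of 0.829, and chance flags about 1 in 20 groups. With clone M the highest library stood apart for Aldh1a2 at 5.10 CPM, Gli1 at 32.5 CPM, Itga9 at 7.96 CPM, Mmp11 at 56.6 CPM, Pdgfrb at 1330 CPM and Rspo3 at 4.68 CPM, and the lowest for Gas1 at 174 CPM and Steap1 at 13.4 CPM. In mono-culture the highest library stood apart for Col4a1 at 726 CPM, and the lowest for Cdkn1c at 16.5 CPM, Chac1 at 31.8 CPM, Inhba at 4.24 CPM, Mvk at 73.3 CPM and Nalcn at 3.11 CPM. The clone M library that stood apart for Gli1 was replicate 3, which held the most Krt8, and the part of tumour cell RNA in this value was not tested.

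For 16 named genes clone M and the mean of the other 6 clones lay on opposite sides of mono-culture, and their difference passed the edgeR test. The log2 differences, clone M minus the other clones, were -2.55 for Cth, -1.94 for Chac1, -1.75 for Gm129, -1.69 for Asns, -1.66 for Steap1, -1.64 for Ankrd1, -1.48 for Mthfd2, -1.40 for Gpt2, -1.30 for Phgdh, -1.22 for Got1, -1.13 for Gars, -1.04 for Psat1, -1.02 for Slc3a2 and -0.895 for Sars, and 2.33 for Dhrs3 and 1.57 for Zfp618. Asns, for example, was 0.867 lower with clone M and 0.826 higher with the other clones than in mono-culture. Both comparisons share the mono-culture libraries. Among genes of at least 5 CPM in mono-culture, 95 showed such opposite signs, 29 of them higher and 66 lower with clone M.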

How the results depend on the processing

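Against mono-culture, 3320 genes were called, 1756 higher and 1564 lower. Without clone M replicates 3 and 4, an alternative chosen after seeing the data, the counts were 1693, 964 and 729. Leaving out single libraries gave 2418 to 3057 calls, 1269 to 1738 higher and 1149 to 1379 lower. Other settings ranged from 1372 higher with at least 10 counts in every library and 1301 lower when genes of low count were kept, to 2361 higher and 2181 lower in the fit of the 8 libraries alone (13308 genes), with 1874 and 1718 by DESeq2. Against the mean of the other 6 clones (6285 calls), clones E, K and N alone gave 1481 calls, 697 higher and 784 lower, and leaving out single libraries gave 4835 to 5705, 2493 to 2987 higher and 2342 to 2718 lower. The replicate block gave 4098 calls against mono-culture, 2074 higher and 2024 lower, and 7010 against the other clones. Same-numbered libraries had r between -0.154 and 0.033 with mono-culture and between -0.398 and 0.693 with the other 7 lines, where 17 of 28 pairs were over 0.1 but no line had all 4. Of the 4 clone M libraries, 3 correlated best with their own number for clones E, H, K and KPC1, 1 or 2 for clones N, T and V and 0 for mono-culture, a hint from the data that the co-culture numbers are shared in part. The sample titles number the co-cultures replicate by replicate, with the mono-cultures after them. What that order stands for is not stated. Title order and co-culture cannot be told apart in the comparison with mono-culture.

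Of 3321 values of named genes against mono-culture under alternatives, 3241 kept their side of the threshold, 57 lost and 23 gained it. Of 2793 against the other clones, 2642 kept it, 116 lost and 33 gained it, and 2 changed sign: Gas1 at -0.203 against clones E, K and N alone (adjusted p = 0.701), and Jag2 at -0.186 without clone M replicates 3 and 4 (adjusted p = 0.743). The cause was not tested. The share of higher calls lay between 45.5% and 56.9% against mono-culture and between 47.1% and 60.1% against the other clones. No interval says more than the spread of 4 libraries allows, and the smallest library, clone M replicate 4, had 12532122 counts.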
